A study of Drosophila melanogaster with 3 samples.

Results

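Drosophila tracheal tubes carry oxygen to the tissues, and 7 genes known for building them in the embryo were followed here through a map of where the homeodomain protein CG18599 was recovered on chromatin. The genes were trh, vvl, rib, salm, salr, bnl and btl, chosen by name, among 13945 protein-coding genes. A peak summit was given to a gene when it lay in the gene or when a transcription start site (TSS) of that gene was the nearest one and lay within 10 kb. The authors kept 8858 peaks by the irreproducible discovery rate (IDR), a measure of how well peak ranks hold between replicates, and 9 of their summits fell to these genes. The samples were 3 biological replicates of 1 group: whole embryos of both sexes pooled, 0 to 24 hours old, from 1 transgenic fly line in which CG18599 carries green fluorescent protein (GFP) at its C-terminus, precipitated with an antibody against GFP. All replicates carry the transgene, so no test between groups could be made, and a control experiment that the labels name was not analysed here. Values are therefore given with their spread over replicates and beside the same value for all genes or all IDR peaks. Whole embryos mix all tissues, so the lists cannot tell tracheal cells from others, and they give no read numbers, so depth is unknown.

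As background, the tracheal system starts as groups of ectodermal cells that fold inward and branch. The bHLH-PAS factor trachealess (trh) and the POU factor ventral veins lacking (vvl) specify and maintain these cells. The FGF ligand branchless (bnl), made by surrounding cells, draws out branches that carry its receptor breathless (btl). The zinc-finger genes spalt major (salm) and spalt-related (salr) act in the identity of the main dorsal tube, and the BTB-domain factor ribbon (rib) is needed for branch and tube growth. CG18599 itself encodes a homeodomain, a DNA-binding fold whose members often recognise sites with a TAAT core.

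The sequences under the summits of trh, bnl and vvl are shown because they carry the strongest, the promoter and the weakest peaks of the group. They are read 5′ to 3′ on the strand of the gene from the RefSeq Release 6 assembly, which matches dm6. Capitals mark TAAT or its reverse complement ATTA. The first window spans chr3L:377526-377825 and was cut to 300 bases around the summit. The others reach 50 bp to each side of the summit, except that of the vvl promoter, which stops at the base before the TSS. They span chr3R:19831108-19831208, chr3R:19836835-19836935, chr3L:6790065-6790157 and chr3L:6797434-6797534.
trh, peak of rank 195: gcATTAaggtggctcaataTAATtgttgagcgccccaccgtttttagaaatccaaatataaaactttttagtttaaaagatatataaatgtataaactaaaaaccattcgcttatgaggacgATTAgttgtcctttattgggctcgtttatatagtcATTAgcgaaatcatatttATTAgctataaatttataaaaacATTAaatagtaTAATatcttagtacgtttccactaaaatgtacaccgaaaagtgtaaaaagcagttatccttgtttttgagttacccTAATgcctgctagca
bnl, intronic peak of rank 3217: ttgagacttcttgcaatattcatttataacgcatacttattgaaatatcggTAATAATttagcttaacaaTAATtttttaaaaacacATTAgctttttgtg
bnl, promoter peak of rank 4124: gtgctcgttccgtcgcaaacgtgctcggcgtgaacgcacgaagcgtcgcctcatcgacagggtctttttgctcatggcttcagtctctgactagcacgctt
vvl, promoter peak of rank 7463: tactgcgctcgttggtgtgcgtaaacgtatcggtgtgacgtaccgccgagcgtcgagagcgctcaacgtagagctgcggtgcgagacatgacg
vvl, downstream peak of rank 8402: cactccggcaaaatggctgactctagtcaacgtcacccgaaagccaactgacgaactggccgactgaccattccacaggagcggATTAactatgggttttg
The trh window holds 8 of the 4-letter cores in 300 bases and the intronic bnl window 4 in 101 bases. The promoter windows of bnl and vvl hold 0.

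Peaks were found at trh, vvl, rib and bnl, and none at btl, salm or salr. Thus 4 of 7 genes had an IDR summit, against 31.9% of all protein-coding genes. The 7 genes have a median of 20001 bp of genome that is nearest to their TSSs and within 10 kb of one, against 4246 bp over all genes. Among the 5031 genes with at least as much as the smallest of the 7, btl at 6508 bp, 49.4% had an IDR summit, which is near the 4 of 7 seen here. Per 10 kb of such genome there were 0.701 summits at the 7 genes and 0.815 over all genes. Only 1 of the 7, trh, had a peak among the 885 strongest, against 5.84% of all genes and 9.04% of those 5031. The count of occupied genes was therefore near the share among genes with at least as much such genome as btl. That set has a floor and is not matched to the 7 genes, whose median of 20001 bp lies above the 6508 bp of btl. The count is no result about these genes.

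**Figure D1:**
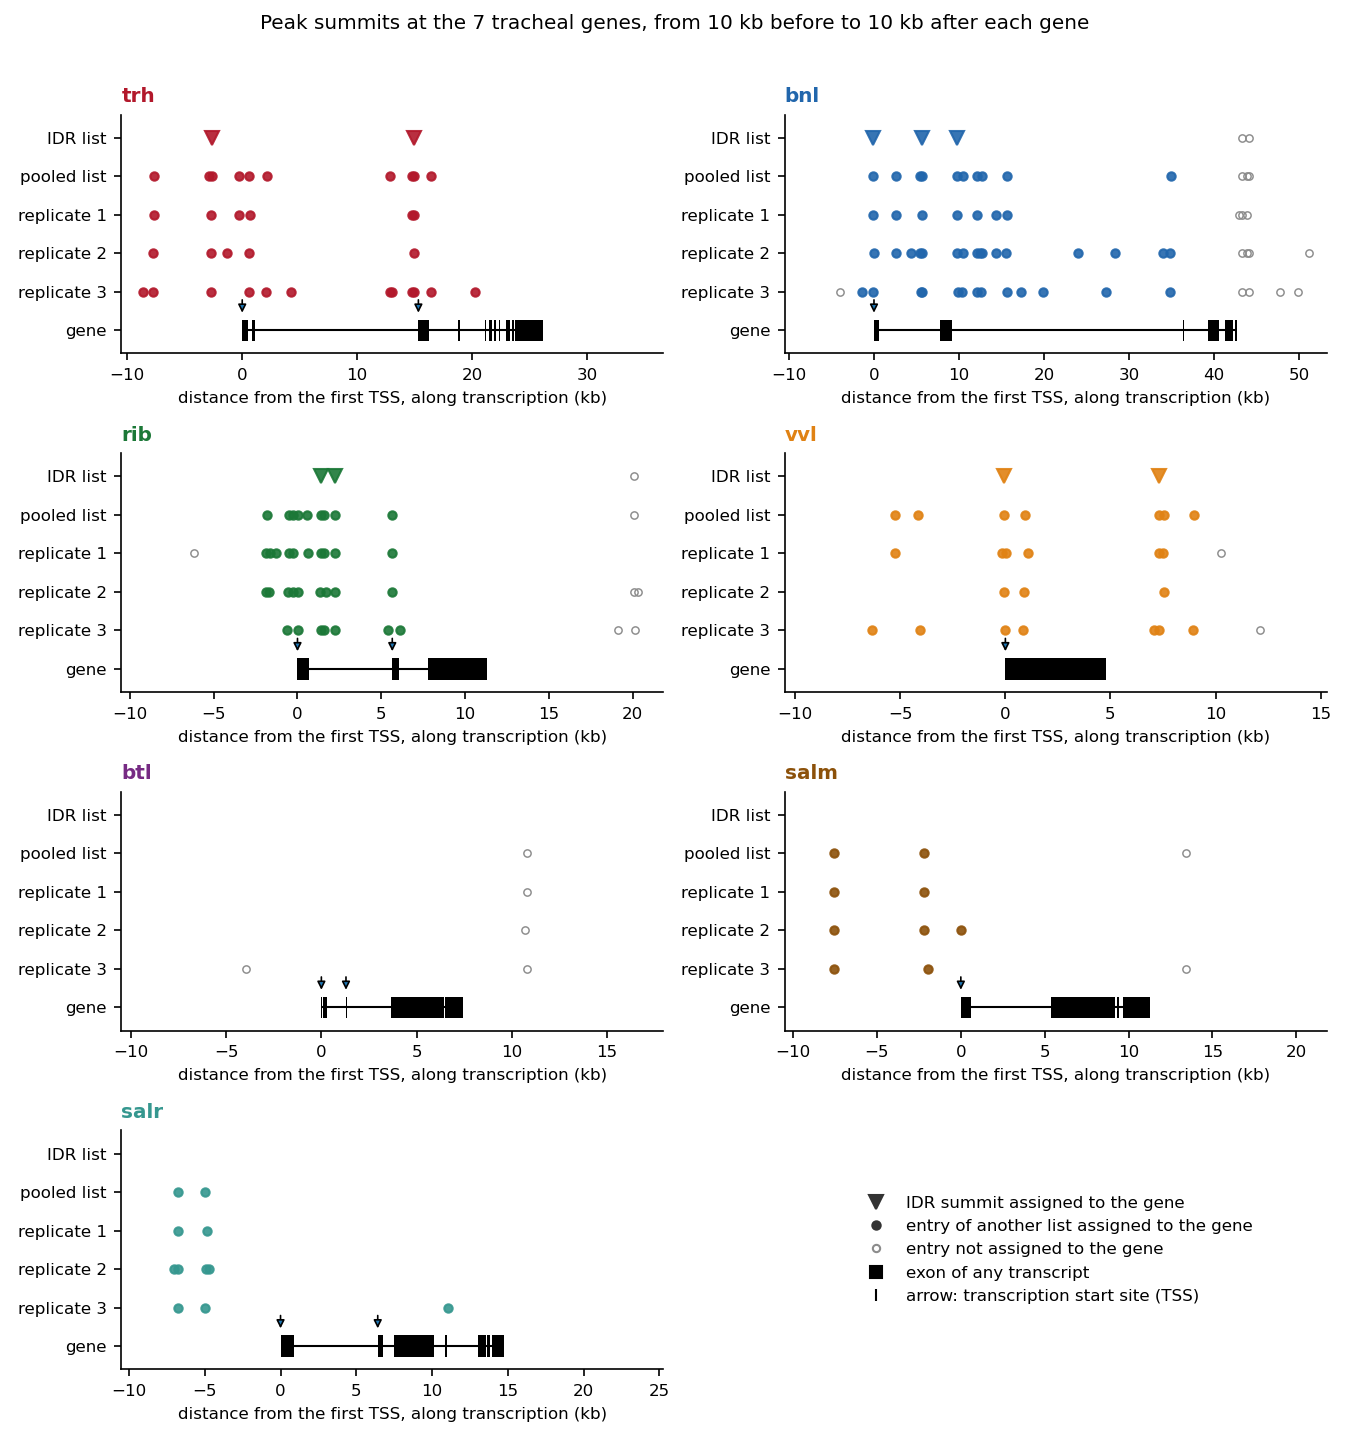
Summits in each list at the 7 genes, as distance in kb from the first TSS in the direction of transcription. Triangles are IDR summits assigned to the gene, filled circles are assigned entries of the pooled and replicate lists, and open circles are entries that were not assigned. IDR summits stand at trh, bnl, rib and vvl, and 0 entries of any list were assigned to btl.

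The master regulator gene trh (FBgn0262139, chromosome arm 3L from 366524 to 392633, minus strand) carried by far the strongest peak of the group. Its peak ran from 377444 to 377919 and had rank 195 of the IDR list, in the first 2.2%, with an authors' signal value of 2533 against a median of 389 over all IDR peaks. The summit had rank 180 in replicate 1, rank 210 in replicate 2 and rank 187 in replicate 3, a mean of 192 ± 15.7 (SD, n = 3). All replicates thus placed this peak near the top of 30000 entries, and their summits lay within 10 bp of the IDR summit. On its arm it was number 29 of 1901 IDR peaks, and among all promoter peaks number 128 of 3196.

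That peak stood at the inner of the 2 start sites of trh. It lay 360 bp upstream of the inner TSS at 377316, where 5 of the 7 annotated transcripts begin. For the 2 longer transcripts, which begin at 392633, the same place is intron 4, of 9683 bp. The outer TSS had 0 IDR summits within 500 bp, and the closest entries of the pooled list had ranks 23408, at 273 bp upstream, and 10277, at 606 bp downstream. The second IDR summit of trh lay 2667 bp upstream of the outer TSS, between genes, with rank 8189. In the replicates it had ranks 14006, 9305 and 4946, a mean of 9419 ± 4531 (SD, n = 3), so that only replicate 3 held it among its 8858 strongest entries, as many as the IDR list has. The nearest TSS of any gene type to this summit was that of the non-coding gene lncRNA:CR43969, at 1706 bp, and with TSSs of all gene types trh kept 1 summit.

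The POU factor gene vvl (FBgn0086680, 3L from 6790158 to 6794941, plus strand) had 2 weak summits. The first lay at the promoter, 43 bp upstream of the only annotated TSS, with rank 7463, and the second lay 7326 bp downstream of the TSS and past the end of the gene, with rank 8402. The promoter summit had replicate ranks of 18096, 7687 and 20121, a mean of 15301 ± 6671 (SD, n = 3). In replicate 1 another entry within 250 bp had rank 6882. The downstream summit had replicate ranks of 7967, 6214 and 21166, a mean of 11782 ± 8174 (SD, n = 3). Replicate 3 held neither among its 8858 strongest entries, and its best entry assigned to vvl had rank 11456. With 1 replicate left out and only summits among the 8858 strongest entries of both others kept, vvl had 0 summits without replicate 1 or replicate 2 and 2 without replicate 3. The upstream trh summit was lost in each case.

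The surroundings of vvl held further summits beyond the 10 kb limit. A pooled-list entry 7558 bp downstream of the TSS had rank 8955, just past the end of the IDR list. Another 2 IDR summits had vvl as the gene of the nearest TSS but lay 33886 and 49955 bp downstream, with ranks 4409 and 5858, both stronger than those inside the limit. The bnl summit at 9789 bp, described below, was the one closest to the limit from inside.

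Ribbon (rib, FBgn0003254, chromosome arm 2R from 19270078 to 19281396, plus strand) carried 2 summits of middle strength in its first intron. They lay 1395 and 2251 bp downstream of the outer TSS, 856 bp apart, in an intron of 7075 bp that belongs to 1 of the 3 annotated transcripts. The first had rank 3821, with replicate ranks of 2131, 7340 and 2598, a mean of 4023 ± 2882 (SD, n = 3). For the second, of rank 4485, the replicates gave 4866, 5262 and 3600, a mean of 4576 ± 868 (SD, n = 3). Every replicate held both summits among its 8858 strongest entries, and replicate 2 ranked the first one lowest. Around the outer TSS the IDR list had none within 500 bp, and the pooled list had entries 243 bp upstream, with rank 9156, and 39 bp downstream, with rank 10249, both past the length of the IDR list. The entry 243 bp upstream had ranks of 6813 and 7477 in replicates 1 and 2 and no counterpart within 250 bp in replicate 3. At the inner TSS, where the other 2 transcripts begin, the pooled list had an entry 11 bp upstream with rank 16243 and the IDR list none within 500 bp.

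The branchless gene (bnl, FBgn0014135, 3R from 19794073 to 19836817, minus strand), which encodes the FGF ligand, had 3 summits, the most of the group. Over all genes, 7.39% had 3 or more, and 13.7% had 2 or more, as trh, vvl, rib and bnl did. Among the 5031 genes with at least as much genome around their TSSs as btl, these shares were 17.7% and 29.2%. The strongest, of rank 3217, lay in intron 1, 5659 bp downstream of the TSS that all 3 transcripts share, with replicate ranks of 4202, 3829 and 2526 and a mean of 3519 ± 880 (SD, n = 3). The next, of rank 4124, lay at the promoter, 68 bp upstream of the TSS, with replicate ranks of 3193, 4087 and 5442 and a mean of 4241 ± 1132 (SD, n = 3). The weakest, of rank 7190, lay in intron 2, which measures 27152 bp, at 9789 bp from the TSS. Its replicate ranks of 5954, 7059 and 6640 gave a mean of 6551 ± 558 (SD, n = 3). All 3 summits were among the 8858 strongest entries of every replicate, and the ranges of the first and second overlapped while that of the third lay below them.

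Pooled-list entries continued along the bnl intron without reaching the IDR list. Those at 10431, 12121, 12688 and 15659 bp from the TSS had ranks of 22203, 14494, 18017 and 11895. A further IDR summit of rank 7414 stood 512 bp past the 3′ end of the gene. The nearest TSS to it, that of Acsx4, was 10039 bp away, so the rule gave it to no gene.

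The receptor gene btl (FBgn0285896, 3L from 14075772 to 14083229, plus strand) had 0 entries in the IDR list, in the pooled list and in each of the 3 replicate lists. Such a full absence was found for 35.2% of all protein-coding genes, and for 14.4% of those with at least as much genome nearest to their TSSs as btl. That set starts at btl and its other genes have as much or more, so 14.4% is no share among genes of its size. The closest pooled-list summit lay 3326 bp outside the gene with rank 12826. In the replicates the closest ones lay 3320, 3261 and 3324 bp outside it, with ranks of 12220, 13181 and 17081, and were nearest to another gene. The closest IDR summits were 20439 bp away, in an intron of Frl, and 18374 bp away, nearest to Fbp1. The receptor and the ligand of the same FGF pathway thus stood apart in these lists, with 0 and 3 IDR summits, a difference that was not tested. The genes also differ in size, with spans of 7458 bp for btl and 42745 bp for bnl. The genome nearest to their TSSs and within 10 kb measures 6508 bp for btl and 12015 bp for bnl. Absence from these lists shows that a place was not among the strongest entries and not that the protein was absent.

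The neighbouring spalt genes had 0 IDR summits each and a few weaker entries upstream. At salm (FBgn0261648, 2L from 11434311 to 11445614, minus strand) the pooled list had entries 2185 and 7591 bp upstream of the TSS, with ranks of 16739 and 10813. The best replicate entries of salm had ranks of 9738, 20234 and 6873. At salr (FBgn0000287, 2L from 11358873 to 11373636, plus strand) the pooled entries lay 4960 and 6782 bp upstream of the outer TSS, with ranks of 9870 and 13511. Its best replicate entries had ranks of 10109, 8793 and 9882. All 4 pooled entries had a summit within 250 bp in every replicate, and replicate 3 for salm and replicate 2 for salr ranked 1 of them inside the length of the IDR list. An entry of the pooled list without an IDR summit was found for 18.8% of all genes.

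Both spalt genes lie in a single stretch of 144432 bp without an IDR summit, from 11331846 to 11476278. Of the 8852 stretches between neighbouring IDR summits, 23 were as long or longer, or 0.26%, and the median was 5210 bp. This comparison was chosen after the values were seen. A longer stretch is more likely to hold a given TSS, so 0.26% is a share of stretches and not of genes. The stretch was not empty, with 18 entries of the pooled list and 18, 19 and 20 of the replicate lists, of which 6, 3, 3 and 7 lay in the 60674 bp between the genes. Within 50 kb of the first TSS there was 1 IDR summit at salm and there were 2 at salr, 5 at btl, 4 at vvl, 8 at trh and 13 each at bnl and rib, against a median of 8 over all genes. As few as 1 was found for 7.09% of all genes, as few as 2 for 12.1%, and as many as 13 for 19.9%.

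**Figure D2:**
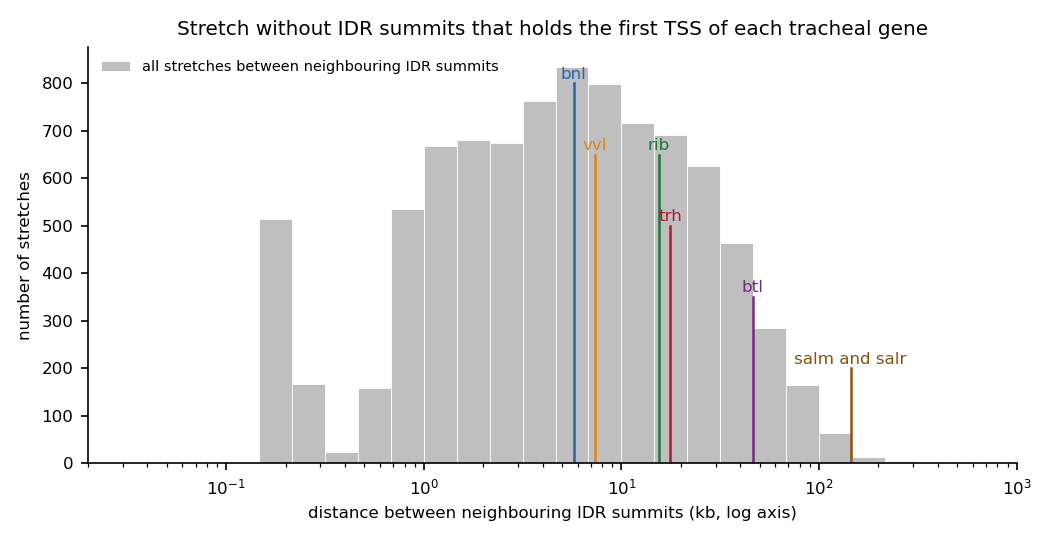
Distances between neighbouring IDR summits in kb on a log axis (grey bars, number of stretches), with a line at the stretch that holds the first TSS of each tracheal gene. Line heights only separate the labels, and the bars count stretches and not genes. The stretch of salm and salr, 144432 bp, lies at the far end, that of btl measures 46270 bp, and those of bnl, vvl, rib and trh lie between 5727 and 17624 bp.

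Across the 4 genes with peaks, the order by strongest peak was trh, bnl, rib and vvl. The replicate ranks of trh, from 180 to 210, did not overlap those of any other summit in the group. The strongest summits of bnl and rib had overlapping replicate ranks, from 2526 to 4202 and from 2131 to 7340, so these neighbours in the order did not differ beyond their spread. The vvl promoter summit, from 7687 to 20121, lay below all 3 ranks of the strongest rib summit, while the best entries assigned to vvl, at 6882, 6214 and 11456, overlapped them. The median rank of the 9 summits was 4485, against 4430 over the IDR list.

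**Figure D3:**
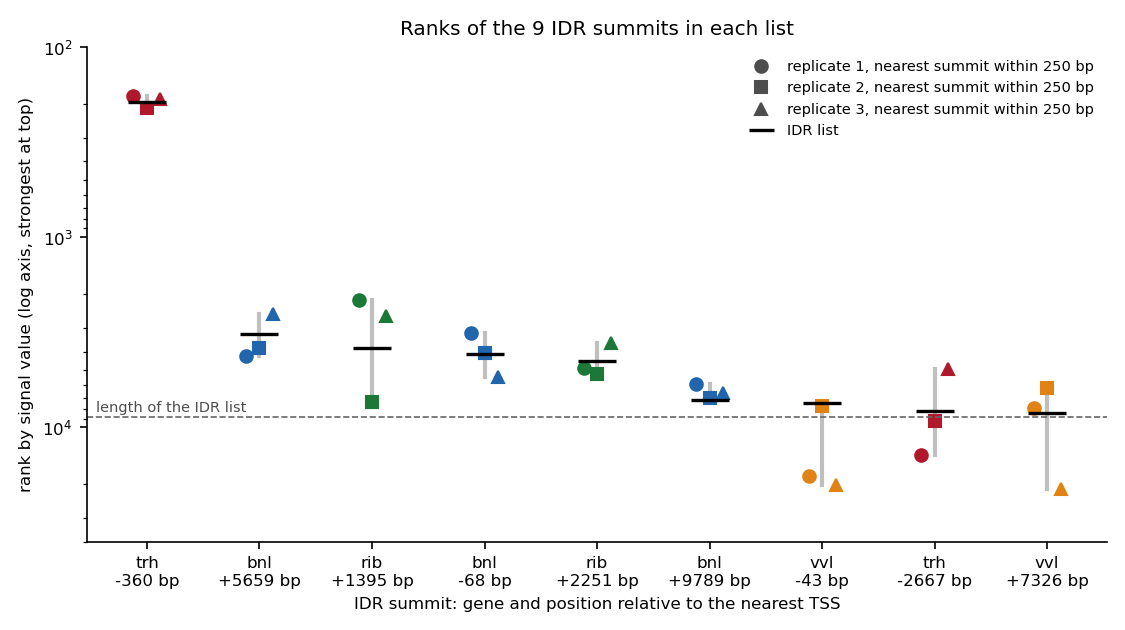
Rank by signal value on a log axis, strongest at the top, for the 9 IDR summits in each replicate (symbols) and in the IDR list (black bars). Grey lines join the lowest and the highest replicate rank, and the dashed line is the length of the IDR list, 8858. The trh summit at -360 bp lies between 180 and 210 in all replicates, and the weakest summits, at vvl and upstream of trh, spread past the dashed line.

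Presence among the strongest entries of every replicate followed strength, which is itself a rank in a list made from the same replicates. The spread of replicate ranks followed strength only in part. It was wide at the 3 weakest summits but also at the first rib summit, and narrow at the bnl summit of rank 7190. Of the 9 summits, 6 had a summit within 250 bp among the 8858 strongest entries of all 3 replicates, against 70.1% of all IDR summits. The 3 others were the upstream trh summit and both vvl summits. All 9 had a counterpart somewhere in each whole replicate list of 30000 entries, against 95.0% of IDR summits. The largest replicate rank was 1.17 times the smallest at the trh promoter and 2.83 times at the upstream trh summit, 1.66, 1.70 and 1.19 times at the bnl summits, 3.44 and 1.46 times at those of rib, and 2.62 and 3.41 times at those of vvl, against a median of 1.64 over IDR summits found in every replicate. By gene, 4, 5 and 4 of the 7 had an entry among the 8858 strongest of replicates 1, 2 and 3, which is 61.9% ± 8.25 (SD, n = 3), against 31.9%, 33.1% and 31.4% of all genes, a mean of 32.1% ± 0.839 (SD, n = 3). Among the 5031 genes with at least as much genome around their TSSs as btl, these shares were 49.3%, 48.7% and 49.8%, so that the 4, 5 and 4 of 7 are no result about these genes. The genes behind these counts differed: replicate 3 counted salm and not vvl, and replicate 2 counted salr as well as the 4 genes with IDR peaks.

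**Figure D4:**
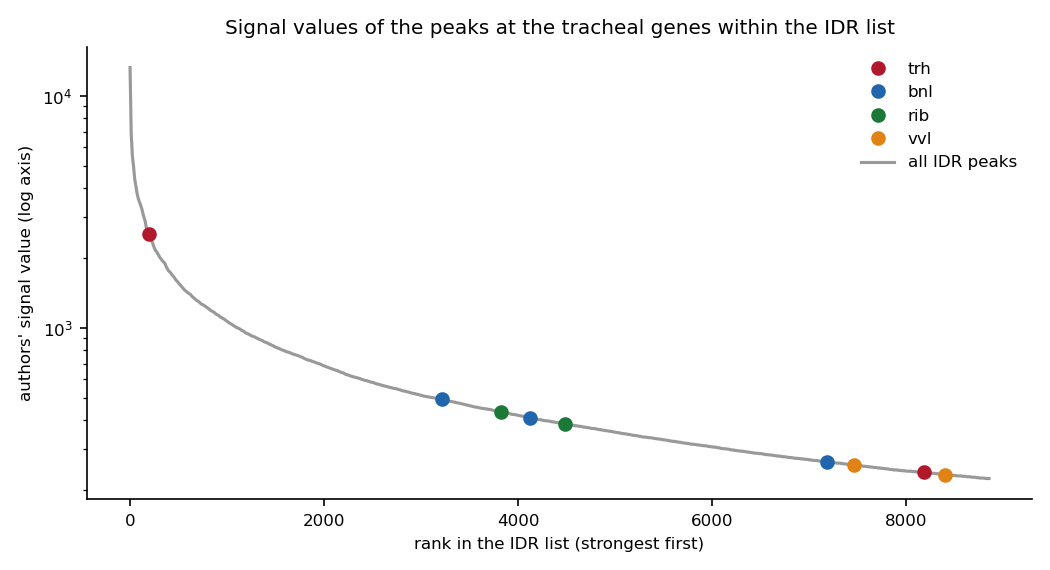
The authors' signal value on a log axis against rank for all 8858 IDR peaks (grey line), with the 9 peaks of the tracheal genes as points. The trh promoter peak, at 2533, lies on the steep start of the curve, and the other 8 lie on its flat part between 233 and 492.

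The summits fell in several kinds of place. Promoters, within 500 bp of a TSS, held 3 of the 9, against 36.1% of all IDR summits. Introns held 4, against 42.7%, the space between genes held 2, against 19.2%, and exons held 0, against 2.04%. With 9 summits these counts lie near the shares over the whole list. By gene, 3 of the 7 had a promoter summit, against 18.7% of all genes and 23.7% of the 5031 with at least as much genome around their TSSs as btl. Neighbouring summits of a gene lay 856 bp apart in rib, 4130 and 5727 bp in bnl, 7369 bp in vvl and 17624 bp in trh. The median between neighbouring IDR summits of the whole list was 5210 bp. All but 2 of the peaks were 440 bp wide, which is also the median width of IDR peaks, the exceptions being the trh promoter peak at 476 bp and the second rib peak at 141 bp.

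Base composition split the summits rather than uniting them. Within 50 bp of the summit the share of A and T was 71.3% at the trh promoter, 76.2% at the strongest bnl summit and 72.3% and 71.3% at the rib summits, against a median of 65.3% over all IDR summits. The bnl and vvl promoters had 42.6% each, below 49.5%, the 10th percentile over all IDR summits. The downstream vvl summit, which is not at a promoter, had 47.5%, also below that percentile. The intron 2 summit of bnl had 54.5% and the upstream trh summit 68.3%. Of the 5 strongest summits, 4 lay above the median share of A and T and the bnl promoter lay below it. The weak upstream trh summit lay above it too, and a relation of this share to strength was not tested.

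A total of 5 short motifs were searched on both strands within 50 bp of each summit. TAAT was present at 7 of the 9 summits, against 71.8% of all IDR summits, and absent at the bnl and vvl promoters, of which the printed vvl window holds 93 of the 101 bases searched. Within 25 bp it was present at 4 of the 9, against 51.1%. The longer homeodomain core TAATTA, which contains TAAT, was present at 0 of the 9, against 9.04%. GAGAG, the core bound by the GAGA factor, was present at 2, the vvl promoter and the intron 2 summit of bnl, against 12.0%. TACGTG, a core bound by Trh together with its partner Tango, was present at 0, against 2.05%, and within 100 bp at 1, the upstream trh summit, against 4.45%. The motif ATGCAAA, part of the octamer bound by POU factors such as Vvl, was present at 0, against 3.83%. With shares this low in the whole list, 0 of 9 is no result, and a motif that is not in a window says nothing of the factor.

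Other genes had replicate ranks much like those of the leading summits. Likeness was the sum, over the 3 replicates, of the absolute difference in log10 rank of the strongest peak, among 3817 other genes. The closest to trh were Drat, at 0.0476, with ranks of 173, 218 and 181, and Pits, at 0.0695. For bnl they were gskt, at 0.0288, with ranks of 4053, 3761 and 2557, and the neuropeptide gene CCHa1, at 0.0688. For rib the closest were CG9674, at 0.18, and CG7530, at 0.2.

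In a wider set of 49 genes, 30 had an IDR summit, or 61.2%, against 31.9% of all protein-coding genes. The genes were picked from general knowledge for roles in the trachea or in pathways used there. They include htl, ths and pyr, paralogs of the tracheal FGF receptor and ligand, which had 1, 7 and 1 of the summits. The set was chosen with earlier results of these data known, so its shares are no independent support, and it was not tested. The roles were not checked, and many of the genes act in most tissues. Of the 49, 36 have at least as much genome around their TSSs as btl, and 27 of these 36 had an IDR summit, against 49.4% of all such genes. EGF and Dpp signalling genes had summits at 8 of 9 genes, and at 7 of the 7 with at least that much genome. The strongest were at shn (rank 168), a zinc-finger mediator of Dpp signalling, at the EGF ligand gene spi (rank 259) and at Mad (rank 724), the Smad of the Dpp pathway. The EGF receptor gene Egfr (rank 4884), the Dpp receptor gene tkv (rank 4770) and the protease gene rho (rank 5923) had weaker peaks, and the Dpp receptor gene sax had 0.

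Genes that act between the FGF receptor and the nucleus, with paralogs of the ligand and receptor, had summits at 8 of 12, against 31.9% of all genes. Of the 8 with at least as much genome around their TSSs as btl, 7 had one, against 49.4% of all such genes. The kinase gene Raf had 13 summits and rank 77, with replicate ranks of 69, 115 and 66, and the FGF ligand gene ths had 7 summits and rank 862. The feedback inhibitor gene sty, which limits Branchless signalling, had 5 summits and rank 1110. The adaptor gene stumps, which links Breathless and Heartless to their pathway, had 3 summits and rank 2535, with the strongest 386 bp upstream of a TSS. The second FGF receptor gene, htl, had 1 summit of rank 4725, 468 bp upstream of a TSS, while btl had 0. Ras85D, Sos, rl and Dsor1 also had 0.

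Transcription factor genes of the placode, branches and terminal cells had summits at 6 of 10, against 31.9% of all genes. All 10 have at least as much genome around their TSSs as btl, and the share among all such genes was 49.4%, so this count is near the background. The ETS factor gene pnt had 12 summits and rank 481, its antagonist aop 13 summits and rank 982, and the epithelial factor gene grh 2 summits and rank 1473. The gene dysf, whose product is a bHLH-PAS protein of fusion cells, had rank 3809, 441 bp upstream of a TSS. The branch identity genes kni and knrl, the fusion cell gene esg and tgo, which encodes the partner of Trh, had 0 entries in the IDR and pooled lists. The partners trh and tgo thus differed in these lists, a difference that was not tested. The genome nearest to the TSSs of trh and within 10 kb measures 30757 bp, more than for 98.6% of genes. For tgo it is known here only to be at least the 6508 bp of btl.

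Tube lumen and matrix genes had the lowest share of the 6 lists, with summits at 4 of 11, close to the 31.9% of all genes. Of the 7 with at least as much genome around their TSSs as btl, 3 had one, against 49.4% of all such genes. The strongest were at crb (rank 1601), an apical polarity gene, mmy (rank 3034), which acts in chitin synthesis, and pio (rank 4087), a lumen protein gene. The only summit of pio was nearest to a TSS of CG13587, and that of dpy (rank 4471) to one of HP6. The chitin deacetylase genes serp and verm, the chitin synthase gene kkv and knk had 0. The branch fusion list had summits at 2 of 4 genes, CAP (rank 1182) and the E-cadherin gene shg (rank 2886). CAP held 6 of the 8 summits of this list, and its role in fusion was not checked here. Hypoxia genes had summits at 2 of 4, the hypoxia factor gene sima, with 7 summits and rank 618, and its hydroxylase gene Hph (rank 1151), whose strongest summit was nearest to Tim17a2. With 4 genes in each of these lists, the counts are too small to set against the 31.9% of all genes or the 49.4% of those with large surroundings.

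**Figure D5:**
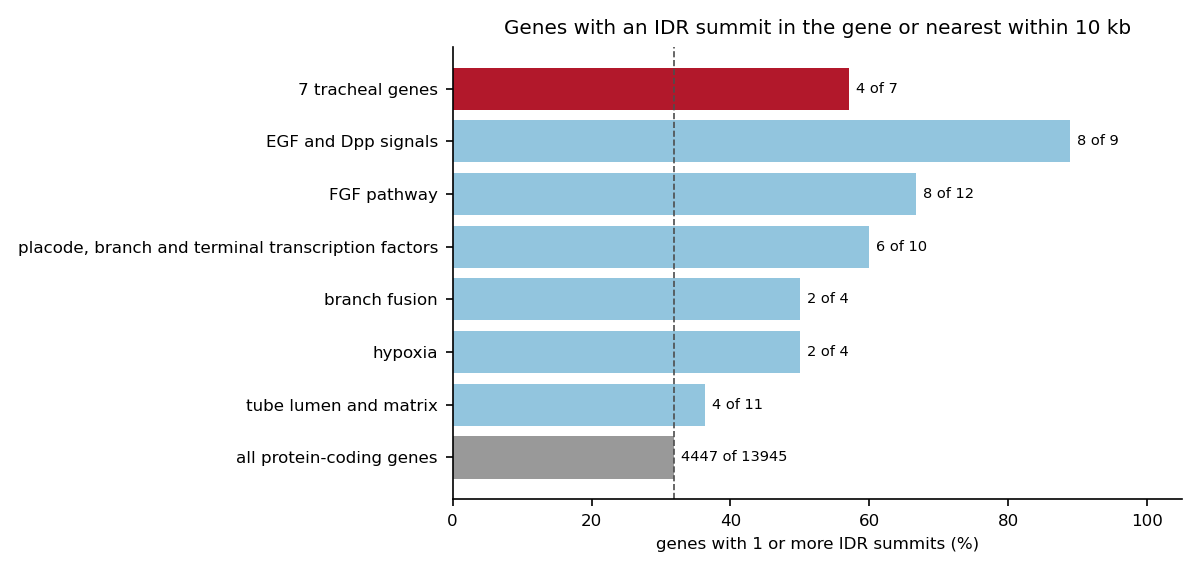
Percentage of genes with 1 or more IDR summits for the 7 tracheal genes (red), the 6 wider lists (blue) and all protein-coding genes (grey, dashed line at 31.9%), with the number of genes beside each bar. The 7 genes stand at 4 of 7, the EGF and Dpp list at 8 of 9 and the tube lumen and matrix list at 4 of 11. Gene tgo is in 2 of the lists.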

How the data were processed

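Chromatin immunoprecipitation and sequencing was done on 3 replicates of whole embryos, with chromatin sheared to 200 to 800 bp, per the labels. The authors deposited peak lists on dm6: 1 list of peaks and background regions per replicate, from the alignments of that replicate and of 1 second file shared by all, 1 pooled list, and 1 list of IDR peaks, per the deposited notes. Versions on dm3 were not used, since the gene models are on dm6. Each peak carries the authors' signal value, whose scale the notes do not state, and a deposited column taken, from its place in the format, to be −log10 q-values. The signal values served to rank peaks within a list. The threshold of the IDR step, the aligner and the peak-calling program were not given in the sources used here.

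The summit was the deposited start plus the deposited offset, counted from 1. Gene models were those of Ensembl release 115, whose coordinates are those of dm6, and every peak ended within the reference chromosome of the same name. A summit with tied TSSs went to the gene whose identifier comes first. The replicate rank of a summit was that of the nearest replicate summit within 250 bp. Computations used Python 3.11.15, numpy 2.4.6 and pandas 2.3.3, and gene assignment and motif search were tested on simulated data. Alternatives changed the TSS distance, the gene types, the part of the IDR list, the ranking value, the summit and motif windows and the replicates included. No p-value was computed. The 7 genes, the lists and the motifs were chosen with earlier results of these data known. Named were all 7 genes and their summits, the 2 genes most like each of the 3 strongest, and up to 3 genes with the strongest peak of each wider list. Other genes of the wider lists, and comparisons said to be so chosen, were named after their values were seen. In the wider lists phl and dp were matched to the current symbols Raf and dpy.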

Additional observations from a re-analysis of the deposited data

How the results depend on the processing

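Peaks at 4 of the 7 genes were also found with a TSS distance of 5 kb or 1 kb, with nearest TSSs only, with TSSs of all gene types and with neighbouring summits merged. Counting summits in gene spans alone gave 5 summits at 3 genes, against 17.9% of all genes, since 4 of the summits lie outside the spans, both of vvl among them. The stronger 4429 IDR peaks gave 4 summits at 3 genes, against 21.1% of all genes, with none at vvl. Leaving out each replicate in turn gave 6 to 8 summits, 3 to 4 genes and 26.4% to 27.3% of all genes. Ranked by −log10 q, the median rank of the 9 summits was 2446, the shared rank of the 4891 IDR peaks that hold the largest value, and trh shared it too, so this ranking cannot separate strong peaks. Of the values for single genes and motifs, 17 of 84 moved, 15 to lower values and 2 to higher. Changes within a set limit did not count as moved. The genes without IDR summits, btl, salm and salr, could not gain one under these alternatives. Their values were bound to stay the same, so the share of moved values is no measure of robustness. No paired analysis was possible because there is 1 group of samples. The unknown depth limits every statement on a gene without a peak.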
